A study of Oryza sativa Japonica Group with 3 samples.

Results

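Pentatricopeptide repeat (PPR) genes were compared between 2 RNA pools of rice root tips, cellular poly(A) mRNA and RNA from purified nuclei. The group held the 267 genes whose deposited description contains the word pentatricopeptide and whose larger pool mean was at least 3 RPKM (reads per kilobase of gene, scaled to the reads of the library). They were 267 of 345 genes with that word and of 35664 gene identifiers in all. The genes were thus chosen by their measured RPKM means in both pools. Differences between the pools over the whole group are given as descriptions, and no test of the group is made.

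All plants were cultivar Nipponbare, and the terminal 1 cm of roots was taken from seedlings 7 days old on medium with 1% sucrose. The poly(A) RNA came from the line p35S:HF-FLAG-OsRPL18, which carries a tagged ribosomal protein, by capture on oligo(dT). The nuclear RNA came from the line p35S:OsNTF2, whose nuclei were captured on streptavidin beads, and its ribosomal RNA was degraded. Each pool has 4 libraries, stated to be biological replicates. In both lines the viral 35S promoter drives the transgene. The labels give the medium at 1 times standard strength for the poly(A) line and 0.5 times for the nuclear line, whereas the series design names 1 times strength for all. Pool, line, RNA selection and labelled medium changed together and cannot be told apart.

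PPR proteins are encoded in the nucleus and work mostly in mitochondria and plastids. Each is a chain of short helical repeats that binds a particular stretch of organelle RNA. Members of the family take part in editing, splicing, cleavage, stabilisation and translation of organelle transcripts, and those that end in a DYW domain are associated with editing of C to U. In a root tip, which is not green, the plastids are not photosynthetic, while mitochondria supply the energy of dividing cells.

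Poly(A) libraries were 17.5 times deeper on average: 19430872 to 29974184 reads fell on genes there, and 1073588 to 2290278 in nuclear libraries. For 1 kb of gene, 1 read stood for 0.0333 to 0.0514 RPKM in the former and for 0.436 to 0.93 RPKM in the latter. Root genes such as the silicon transporter LSI1 and the root patterning genes SHR1 and SCR1 were above 0 in all 8 libraries. The shoot meristem gene OSH1 was at 0 in all 8, and 18 chlorophyll-binding and Rubisco small subunit genes, 4 of them at 0 in all libraries, summed to 17.5 to 29.9 RPKM in poly(A) and 39.2 to 63.8 RPKM in nuclear libraries. The part of such RNA in the results was not tested. In bulk RNA, fewer cells of a type and less RNA per cell cannot be told apart.

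The 267 PPR genes had a lower median level in poly(A) RNA than in nuclear RNA. The rule set part of this order, since 181 of them were admitted by their nuclear mean alone. Over the 267 genes, the poly(A) mean ran from 0.258 to 40.4 RPKM with a median of 1.81 RPKM. The nuclear mean ran from 1.20 to 37.0 RPKM with a median of 7.03 RPKM. The spread of the 2 pools is not compared here, since the threshold bounds the nuclear mean of most of these genes from below. These values rested on a median of 507 reads per gene over the 4 poly(A) libraries and 105 over the 4 nuclear libraries, and the median coefficient of variation was 11.4% and 28.8%.

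The summed level of all 345 annotated PPR genes, which no level chose, showed the same order. It made up 0.128, 0.122, 0.128 and 0.114% of the summed RPKM of poly(A) libraries 1 to 4. In nuclear libraries 1 to 4 it made up 0.434, 0.430, 0.422 and 0.390%. Every nuclear library lay above every poly(A) library, at means of 0.419% ± 0.0198 and 0.123% ± 0.00654 (SD, n = 4 each). The ratio of these shares was 3.41. In RPKM not scaled to the library's sum, the family summed to 2625 ± 115 and 923 ± 44.8 RPKM (SD, n = 4 each), a ratio of 2.84. The 10 highest PPR genes of each pool held 23.1% of the family's sum in poly(A) RNA and 11.0% in nuclear RNA. The leading gene was OS05G0145600 in the poly(A) pool, with 4.37% of the sum, and OS12G0407900 in the nuclear pool, with 1.41%.

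**Figure D1:**
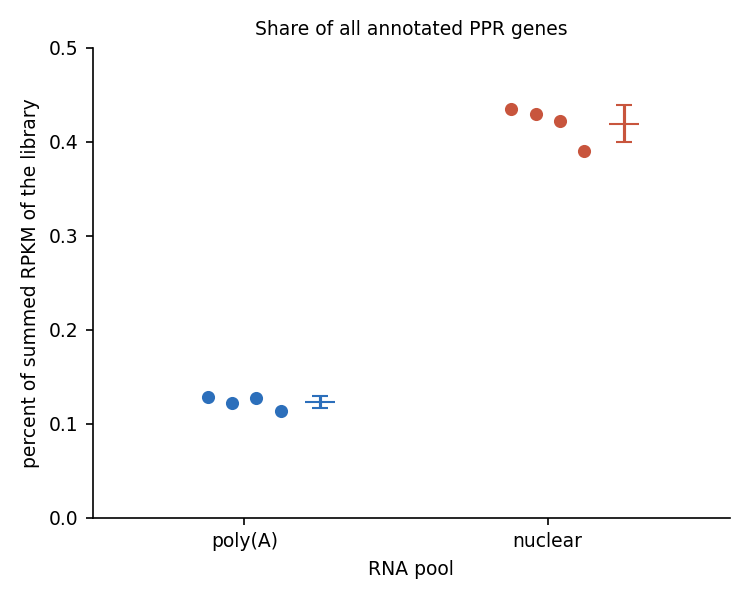
Share of the summed RPKM of each library held by all 345 annotated PPR genes, in percent, by RNA pool. Points are the 4 libraries of a pool, and the bar beside them is the mean with the SD; the poly(A) libraries lie at 0.114 to 0.128% and the nuclear libraries at 0.390 to 0.434%.

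By limma on log2(RPKM + 1), at an adjusted p under 0.05, 223 of the 267 genes were higher in nuclear RNA (83.5%), against 33.1% of the 26928 genes tested. Lower were 7 genes (2.62%), against 30% of all tested genes, and 37 passed in neither direction. With a difference of at least 2-fold as well, 191 were higher (22.5% of all tested genes) and 3 lower (21.2%). All 4 nuclear libraries lay above all 4 poly(A) libraries for 219 genes (31.7% of all tested genes) and below them for 8 (29.4%), and the libraries overlapped for 40. The median difference, nuclear minus poly(A), was 1.45 on the log2 scale, with quartiles of 0.90 and 1.95, against 0.08 over all tested genes.

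These counts were partly set by the choice of genes. By their nuclear mean alone, 181 of the 267 genes reached 3 RPKM. These had to be higher in nuclear RNA than in poly(A) RNA, and 166 of them were called higher and 0 lower. By both means 83 genes reached the threshold, and 3 by the poly(A) mean alone. The 86 genes with a poly(A) mean of at least 3 RPKM were members whatever their nuclear level. Of these, 57 were higher (66.3%, against 28.5% of all tested genes at that poly(A) level), 7 lower (8.14%, against 38.5%) and 22 passed in neither direction. Their median difference was 0.94 on the log2 scale, against −0.25 for all tested genes at that level. The 2 sets share only this lower bound and are not matched in level. At 12 RPKM or more were 8 of the 86 PPR genes and 10614 of the 19440 tested genes. Values within bins of level are given below. Adjusted p-values are printed below for members only from among these 86.

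At the threshold itself, the lowest members were OS01G0959600, with a nuclear mean of 3.05 RPKM and a poly(A) mean of 0.349 RPKM, and OS09G0417500, with 3.05 and 1.10 RPKM. Just outside were OS02G0670700, with 2.96 RPKM in nuclear and 0.835 RPKM in poly(A) RNA, and OS07G0578800, with 2.97 and 2.99 RPKM.

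**Figure D2:**
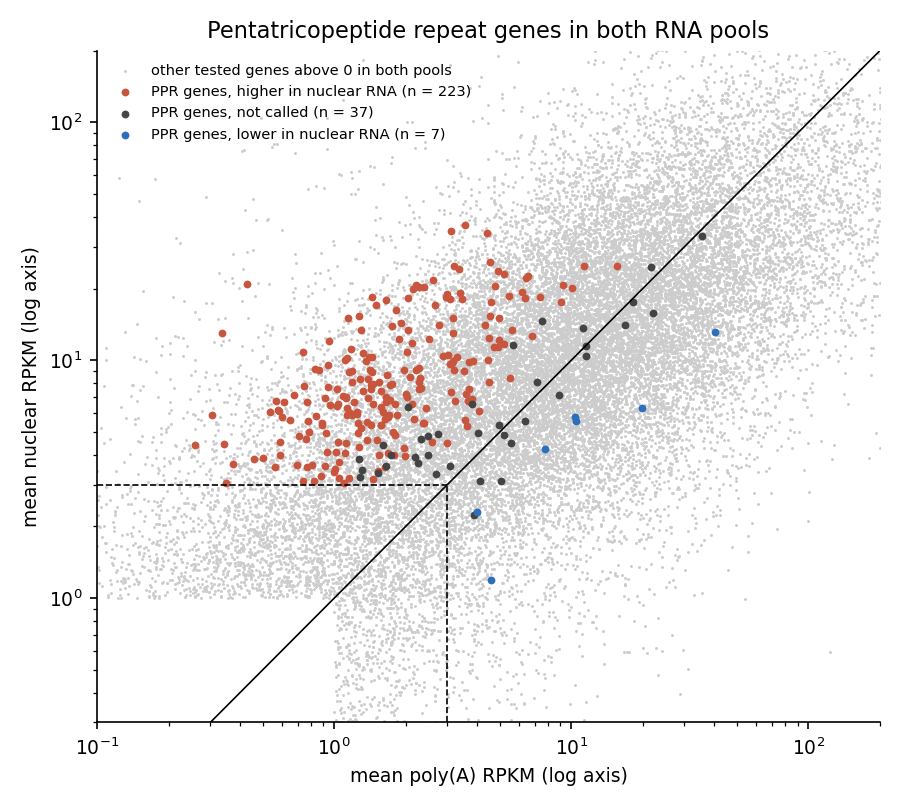
Mean poly(A) RPKM (horizontal, log axis) and mean nuclear RPKM (vertical, log axis) of 267 PPR genes over the other tested genes in grey; grey points beyond the ends of the axes are not drawn. The solid line marks equal levels and the dashed lines the threshold of 3 RPKM in either pool; 223 PPR genes called higher in nuclear RNA lie above the line of equal levels and 7 called lower lie below it.

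The difference between the pools was smaller at higher poly(A) levels. In the bins under 3 RPKM, which hold only genes admitted by their nuclear level, 47 of 47 genes under 1 RPKM (53.3% of all tested genes there) and 119 of 134 genes from 1 to 3 RPKM (40.2%) were higher in nuclear RNA. From 3 to 6 RPKM, 46 of 58 genes were higher and 2 lower, with a median log2 difference of 1.14. All tested genes of that bin were higher in 42% and lower in 14.2%, with a median of 0.41. Under 1 RPKM, all tested genes had a nuclear mean of at least 1 RPKM by the filter, so their 53.3% was partly set too.

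From 6 to 12 RPKM, 10 of 20 PPR genes were higher and 3 lower, with a median log2 difference of 0.74. All tested genes there were higher in 35.7% and lower in 23.2%, with a median of 0.10. At 12 RPKM and above, the bin held 8 PPR genes, of which 1 was higher and 2 lower, with a median log2 difference of −0.26. All tested genes there were higher in 20.1% and lower in 54.7%, with a median of −0.67. Both the family and the whole table thus ran downwards with poly(A) level, and in each of the 3 bins from 3 RPKM upwards the PPR median lay above that of all tested genes.

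In the 3 bins from 3 RPKM upwards, where the nuclear level chose no gene, the median nuclear level was 9.99, 14.2 and 16.6 RPKM and the median ratio of nuclear to poly(A) RPKM 2.52, 1.90 and 0.886. Over the 86 genes with a poly(A) mean of at least 3 RPKM, Pearson's r of log2 poly(A) level with the log2 difference was −0.55, and with log2 nuclear level 0.22. Over the 78 of them below 12 RPKM these were −0.41 and 0.10. Over all 19440 tested genes at 3 RPKM or more they were −0.43 and 0.61. Of those, 10614 were at 12 RPKM or more, against 8 of the 86 PPR genes. The values of r are thus not over like ranges of level. These correlations are across genes, which are not independent replicates, and the level and the difference share the poly(A) libraries.

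In a version without shared poly(A) libraries, the level came from poly(A) libraries 1 and 2. The difference came from poly(A) libraries 3 and 4 with all nuclear libraries. The PPR medians from the lowest to the highest bin were then 1.77, 1.54, 1.14, 0.46 and −0.19 on the log2 scale. The order of the bins did not change, and the bin from 6 to 12 RPKM, with 18 genes, moved from 0.74 to 0.46. Poly(A) libraries correlated with each other at r of 0.991 to 0.995, so this version removes only noise of shared libraries. It cannot part the level from the difference, in which the poly(A) level is still subtracted.

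**Figure D3:**
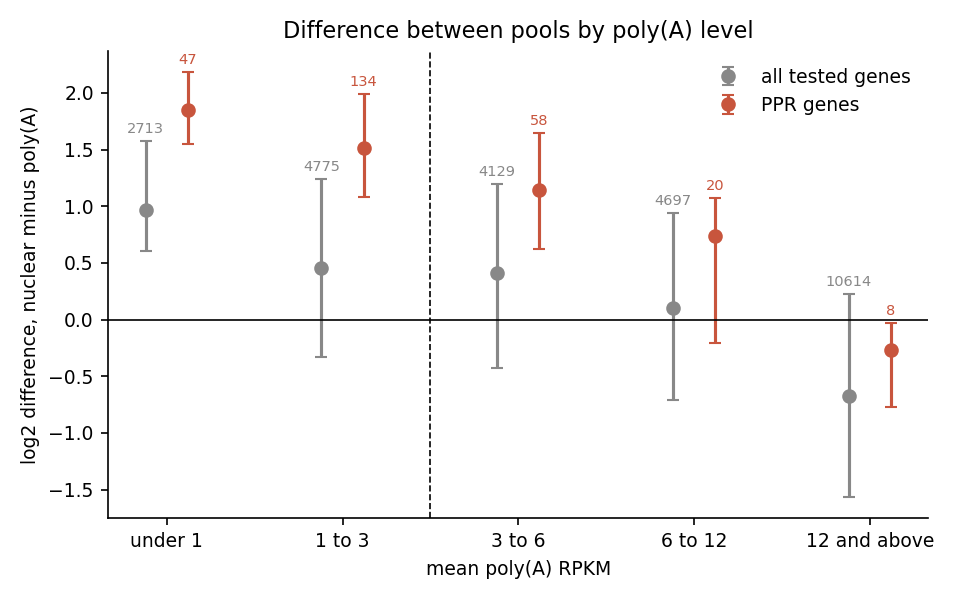
Median log2 difference, nuclear minus poly(A), in bins of mean poly(A) RPKM for PPR genes and all tested genes; bars run from the lower to the upper quartile and the small figures give the number of genes. The bins left of the dashed line hold only PPR genes admitted by their nuclear level. In the bin under 1 RPKM, all tested genes had a nuclear mean of at least 1 RPKM by the filter. The PPR medians run from 1.85 at the left to −0.26 at the right. Those of all tested genes run from 0.97 to −0.67.

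Of the 7 genes lower in nuclear RNA, all had a poly(A) mean of at least 3 RPKM. The rule requires this of any member with the higher mean in poly(A) RNA. The most abundant of the 7, OS05G0145600, was also the PPR gene with the highest poly(A) level. It was at 41.5, 39.6, 41.2 and 39.2 RPKM in the poly(A) libraries and at 12.5, 14.2, 16.5 and 9.15 RPKM in the nuclear libraries. The pools were far apart, and the poly(A) values differed little among themselves. The gene fell by 1.58 on the log2 scale (SE 0.18, limma adjusted p = 8.3e-05), or 2.99-fold on that scale.

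OS12G0562300 had 19.1, 21.1, 18.9 and 20.0 RPKM in poly(A) libraries and 4.86, 7.86, 8.49 and 3.99 RPKM in nuclear libraries. It was lower in every nuclear library, by a log2 difference of −1.56 (SE 0.22, limma adjusted p = 0.000316). Its nuclear values rested on 47 reads in all.

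OS03G0734000 is the shortest of the 267 genes, at 659 nt of counted length. It had 5.21, 3.51, 4.29 and 5.38 RPKM in poly(A) libraries, and 0, 1.32, 3.46 and 0 RPKM in nuclear libraries. The pools did not overlap, by a narrow margin between nuclear library 3 and poly(A) library 2. Only 5 nuclear reads were counted on it, and 0 reads allow up to 3.22 RPKM in nuclear library 1 and 4.23 RPKM in nuclear library 4 (3 reads, counting error only). The log2 difference was −1.63 (SE 0.46, limma adjusted p = 0.0143), and it was −1.35 to −2.07 with 1 library left out, the larger without nuclear library 3 and the smaller without nuclear library 1 or 4. With a pseudocount of 0.1 in place of 1 it was −3.29 (adjusted p = 0.0437).

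OS01G0897500 had 12.3, 10.7, 10.3 and 8.47 RPKM in poly(A) libraries and 8.38, 5.85, 4.20 and 3.67 RPKM in nuclear libraries. The highest nuclear and the lowest poly(A) library nearly met, and the log2 difference was −0.85 (SE 0.23, limma adjusted p = 0.0117). OS03G0159700 had 4.14, 4.05, 3.90 and 3.91 RPKM in poly(A) libraries and 3.17, 1.67, 1.95 and 2.38 RPKM in nuclear libraries, without overlap. Its log2 difference was −0.62 (SE 0.16, limma adjusted p = 0.00829).

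The calls of the remaining 2 were weak. OS04G0450200 had 10.6, 9.77, 11.0 and 10.2 RPKM in poly(A) libraries and 3.68, 4.53, 11.1 and 3.86 RPKM in nuclear libraries. Nuclear library 3, with 14 reads, lay above all 4 poly(A) libraries, and the other 3 nuclear libraries lay below them. The limma adjusted p was 0.029, and it was 0.056 to 0.0704 when any library other than nuclear library 3 was left out. Without nuclear library 3 it was 0.000119, at a log2 difference of −1.19.

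OS01G0848300 had 8.40, 7.66, 7.98 and 6.93 RPKM in poly(A) libraries and 4.20, 6.46, 4.72 and 1.50 RPKM in nuclear libraries. The pools did not overlap, and nuclear library 4, with 6 reads, was lowest. The limma adjusted p was 0.0387, and it was 0.0602 to 0.0876 when nuclear library 1 or any 1 poly(A) library was left out. The other 5 of the 7 genes kept an adjusted p under 0.05 with each of the 8 libraries left out in turn.

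Of the 7 falling genes, 5 (71.4%) were shorter than 1924 nt, the lowest of 3 equal length classes of the family. This share is near that of all genes called lower, 77.2%, and of all tested genes, 68.0%. The description of 3 of the 7 was "Pentatricopeptide repeat containing protein", which 11 of the 267 genes carry. Among those 11, 5 were higher and 3 lower, at a median length of 1583 nt and a median poly(A) level of 4.60 RPKM. Among the 245 genes described as domain containing, 208 were higher and 4 lower, at a median length of 2346 nt and a median poly(A) level of 1.75 RPKM. Over all tested genes, 33.1% were higher and 30% lower. With a median under 3 RPKM, most of the 245 were admitted by their nuclear mean alone. Those had to have the higher mean in nuclear RNA, so the contrast between the 2 wordings was partly set by the rule. The parts of level and length in these counts were not tested. OS08G0191900, named after its values were seen, was the other of the 3 genes that reached the threshold by the poly(A) mean alone. It had 3.88 ± 0.226 RPKM in poly(A) and 2.24 ± 1.18 RPKM in nuclear RNA (SD, n = 4 each), without overlap, and did not pass the test (limma adjusted p = 0.0582). Without nuclear library 1 or 4 it passed, at an adjusted p of 0.0191 and 0.0481.

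**Figure D4:**
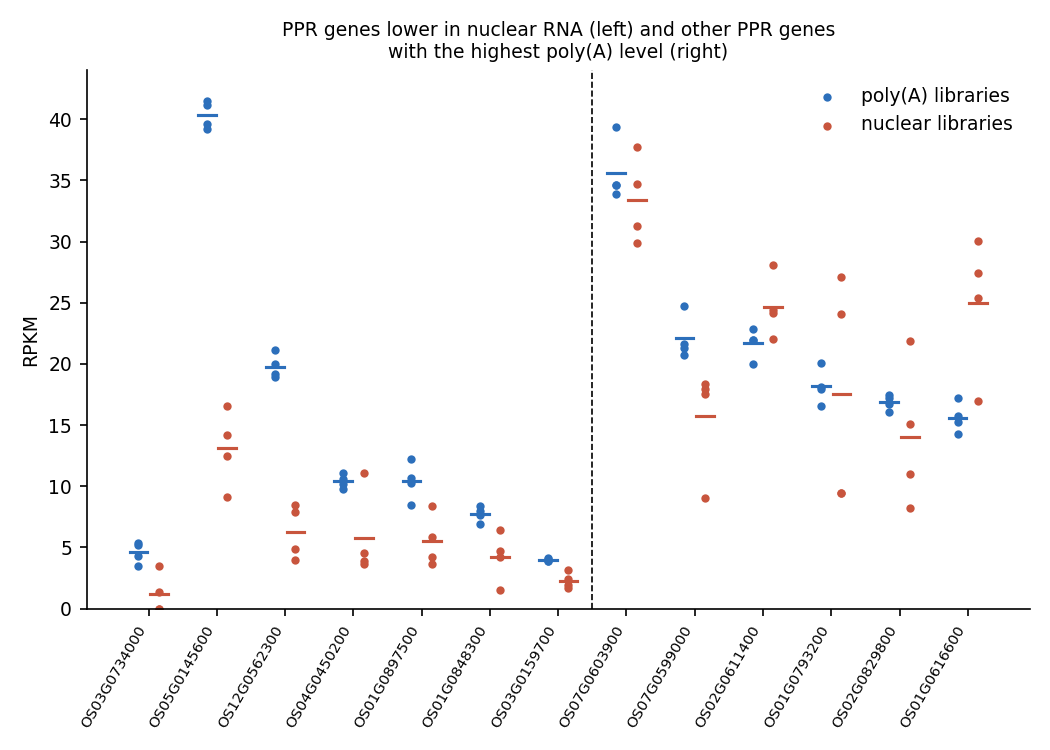
RPKM of single PPR genes in each library, with poly(A) libraries and nuclear libraries as points and the pool mean as a bar. The 7 genes left of the dashed line were lower in nuclear RNA by the test, with nuclear library 3 of OS04G0450200 at 11.1 RPKM beside its poly(A) libraries; OS03G0734000 has 2 nuclear libraries at 0. The 6 genes at the right are the others of the 8 highest in poly(A) RNA.

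Among the 8 genes with the highest poly(A) level, 5 passed in neither direction, and OS01G0616600 alone was higher in nuclear RNA. OS07G0603900 had 39.4, 33.9, 34.6 and 34.6 RPKM in poly(A) libraries and 37.7, 34.7, 31.3 and 29.9 RPKM in nuclear libraries. The pools overlapped, and the log2 difference of −0.09 (SE 0.13, limma adjusted p = 0.551) changed sign to 0.16 when the libraries were scaled to an equal sum. OS02G0611400 had 21.7 ± 1.20 RPKM in poly(A) and 24.7 ± 2.49 RPKM in nuclear RNA (SD, n = 4 each), with overlap. It did not pass (limma adjusted p = 0.25), but did at an equal sum (adjusted p = 0.017).

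OS01G0793200 had 20.0, 16.5, 18.1 and 18.0 RPKM in poly(A) libraries and 27.1, 24.1, 9.43 and 9.43 RPKM in nuclear libraries. Its nuclear libraries stood on both sides of the poly(A) libraries, 2 above and 2 below. The log2 difference was −0.20 (SE 0.35, limma adjusted p = 0.634), and it was 0.02 without nuclear library 3 or 4 and 0.05 at an equal sum. OS02G0829800 showed a similar spread, at 21.9, 15.1, 11.0 and 8.20 RPKM in nuclear and 16.9 ± 0.599 RPKM (SD, n = 4) in poly(A) RNA. It did not pass (limma adjusted p = 0.297), but was lower without nuclear library 1 (adjusted p = 0.0374).

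OS07G0599000 had 24.7, 20.7, 21.6 and 21.3 RPKM in poly(A) libraries and 9.01, 18.0, 18.4 and 17.5 RPKM in nuclear libraries. Every nuclear library was lower, nuclear library 1 by the most, but the difference of −0.51 on the log2 scale (SE 0.23) did not pass (limma adjusted p = 0.0777; 0.0274 with median centring). OS01G0616600 had 15.7, 14.2, 17.2 and 15.3 RPKM in poly(A) libraries and 30.1, 25.4, 17.0 and 27.4 RPKM in nuclear libraries. Nuclear library 3 lay within the poly(A) range, the others above it. The log2 difference was 0.62 (SE 0.19, limma adjusted p = 0.018), with an adjusted p of 0.0542 without poly(A) library 2 and 0.0635 with median centring.

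The 8 largest differences belonged to genes with poly(A) means of 0.335 to 3.56 RPKM. The largest was that of OS01G0914600, at 0.524, 0.317, 0.528 and 0.351 RPKM in poly(A) libraries and 23.0, 21.0, 20.5 and 18.8 RPKM in nuclear libraries, from 84 and 228 reads. OS01G0197450 had 0.418, 0.269, 0.328 and 0.327 RPKM in poly(A) libraries and 17.0, 8.88, 14.3 and 11.7 RPKM in nuclear libraries. For both genes every nuclear library was far above every poly(A) library, and the log2 differences were 3.93 and 3.35. Both were members by their nuclear mean alone, so that they had to be higher in nuclear RNA.

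OS07G0436600 had 3.05, 3.16, 3.47 and 2.79 RPKM in poly(A) libraries and 36.3, 44.7, 26.6 and 32.0 RPKM in nuclear libraries. Without overlap, it rose by 3.10 on the log2 scale (SE 0.17, limma adjusted p = 2.18e-06). OS12G0407900, the PPR gene with the highest nuclear level, had 3.56 ± 0.169 RPKM in poly(A) and 37.0 ± 3.60 RPKM in nuclear RNA (SD, n = 4 each). The other 4 of the 8 largest differences were those of OS06G0506100, OS02G0833050, OS07G0260000 and OS06G0611200. They ran from 2.83 to 2.98 on the log2 scale, with poly(A) means of 1.14 to 1.66 RPKM and nuclear means of 15.0 to 18.4 RPKM. These 4 genes, too, were members by their nuclear mean alone.

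Of the 267 genes, 4 carry a symbol or a described role. OGR1 was a member by its poly(A) level, and the other 3 by their nuclear mean alone, so that these 3 had to be higher in nuclear RNA. OGR1 (OS12G0270200), a DYW protein of RNA editing in mitochondria, had 4.45, 4.82, 4.77 and 4.07 RPKM in poly(A) libraries and 12.2, 13.2, 19.7 and 16.1 RPKM in nuclear libraries. The pools did not overlap, and the gene rose by 1.54 on the log2 scale (SE 0.17, limma adjusted p = 6.64e-05), or 2.91-fold. SMK1 (OS11G0213500), which acts in editing of the mitochondrial nad7 transcript and in seed development per its description, had 1.59, 1.62, 1.72 and 1.69 RPKM in poly(A) libraries and 9.03, 7.25, 4.64 and 5.67 RPKM in nuclear libraries.

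PPR1 (OS09G0413300), a gene required for chloroplast development in rice, had 1.08, 0.868, 0.992 and 0.861 RPKM in poly(A) libraries and 11.6, 10.1, 15.0 and 11.5 RPKM in nuclear libraries. OS03G0597200, described by its role in chloroplast development and named after its values were seen, had 1.92 ± 0.171 RPKM in poly(A) and 14.3 ± 2.30 RPKM in nuclear RNA (SD, n = 4 each). The log2 difference was 1.49 for SMK1, 2.73 for PPR1 and 2.38 for OS03G0597200. For all 4 genes the lowest nuclear library lay above the highest poly(A) library.

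OS07G0300200, named after its values were seen, was the member with the most nuclear reads, 657. It had 4.50, 4.86, 5.04 and 3.29 RPKM in poly(A) libraries and 39.1, 29.0, 37.7 and 31.3 RPKM in nuclear libraries. It rose without overlap by 2.70 on the log2 scale (SE 0.17, limma adjusted p = 3.3e-06).

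PPR genes were longer than the rest of the table, with a median counted length of 2281 nt against 1499 nt for all tested genes. In 3 classes of 89 genes each, below 1924 nt, from 1924 nt and from 2622 nt upwards, 68, 76 and 79 genes were higher and 5, 1 and 1 lower. Over all tested genes of those lengths, 28.1, 36.7 and 51.1% were higher and 34, 26.9 and 15.5% lower. The median log2 difference of the PPR genes was 1.45, 1.55 and 1.39 in these classes. The medians of all tested genes were −0.11, 0.14 and 0.53. The PPR counts and medians of these classes were partly set by the rule, since 181 of the 267 genes were admitted by their nuclear mean alone.

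Among PPR genes with a poly(A) mean of at least 3 RPKM the median difference was 0.71, 0.87 and 1.10 from the short to the long class. For all tested genes with such a mean it was −0.47, −0.11 and 0.29. Their median poly(A) levels were higher, at 14.9, 12.8 and 10.6 RPKM against 4.58, 5.50 and 4.44 RPKM for the PPR genes. Of these PPR genes, 52.9, 68.2 and 80% were higher and 14.7, 4.55 and 3.33% lower. The tested genes at that level were higher in 24.4, 31.5 and 44.2% and lower in 43.4, 33.8 and 21.1%. At matched level and length, from 3 to 6 RPKM of poly(A) RNA and between 1828 and 2875 nt, 22 of 27 PPR genes were higher, with a median of 1.02, against 46.8% of 1051 tested genes, with a median of 0.48. From 6 to 12 RPKM, 4 of 6 PPR genes of these lengths were higher, against 35.4% of tested genes, with medians of 0.97 and 0.12. At 12 RPKM and above, 0 of 4 were higher and 1 lower, against 23.1 and 47.2% of tested genes, with medians of −0.30 and −0.38. How far length or level accounts for the difference was not tested.

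The 267 genes were spread over all 12 chromosome numbers of the identifiers, from 12 genes on chromosome 9 to 43 on chromosome 1. The median log2 difference per chromosome ran from 1.10 to 1.89, and the 7 falling genes carried the numbers 1, 3, 4, 5 and 12. Of the members, 5 pairs were next to each other by identifier. These genes are named after their values were seen. The log2 differences were 0.62 and 1.37 for OS01G0616600 and OS01G0616800, and 2.37 and 1.56 for OS02G0468500 and OS02G0468800. They had opposite signs in OS06G0705300 and OS06G0705350, at −0.28 and 1.70, and in OS08G0290000 and OS08G0290100, at 2.05 and −0.42. OS10G0501200 and OS10G0501300 were alike in level, with 2.89 ± 0.248 and 3.03 ± 0.173 RPKM in poly(A) and 10.5 ± 2.57 and 10.6 ± 3.90 RPKM in nuclear RNA (SD, n = 4 each). The nearby OS10G0501000 differed from them, with 5.70 ± 0.379 and 11.6 ± 7.66 RPKM, and did not pass (limma adjusted p = 0.0904; SD, n = 4 each), except without nuclear library 2 (adjusted p = 0.0448) and at an equal sum (0.0367). Near-identical copies can share reads, so that such neighbours may not be separate measurements.

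Other gene families of related structure or of organelle function were counted by the same rule, beside 33.1% higher and 30% lower among all tested genes. The families were cut at a larger pool mean of 3 RPKM and the tested genes at 1 RPKM, so these shares are not at the same level. Tetratricopeptide repeat genes, whose products are also helical repeat proteins but mostly bind proteins, had 29 of 74 genes higher (39.2%) and 22 lower (29.7%), close to those shares, with a median log2 difference of 0.32. Mitochondrial transcription termination factor genes, which also act in organelles, had 13 of 24 higher (54.2%) and 1 lower (4.17%), with a median of 0.99. Genes for other organelle RNA proteins, such as DAG proteins and intron splicing factors, had 6 of 13 higher (46.2%) and 3 lower (23.1%), with a median of 0.43. At a poly(A) mean of at least 3 RPKM these medians were 0.16 for 68 genes, 0.90 for 17 and 0.19 for 10, beside 0.94 for the 86 PPR genes. In the same order, 35.3, 52.9 and 30% of these families were higher there and 32.4, 5.88 and 30% lower. All 19440 tested genes with such a poly(A) mean were higher in 28.5% and lower in 38.5%, but 10614 of them were at 12 RPKM or more. The median poly(A) levels there were 11.6, 4.43 and 5.36 RPKM, and 4.73 RPKM for the PPR genes, so that the tetratricopeptide genes differed in level too. The values are descriptions, and the difference between families was not tested.

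Single genes of these families stood in both directions. Of the termination factor genes, OS06G0225200 rose from 9.34 ± 0.405 RPKM in poly(A) to 26.5 ± 4.23 RPKM in nuclear RNA (limma adjusted p = 4.43e-05) and OS03G0838900 fell from 18.6 ± 1.08 to 3.09 ± 2.01 RPKM (limma adjusted p = 0.000336; SD, n = 4 each). The DAG protein genes OS09G0509000 and OS09G0132600, of a family of partners of PPR proteins in organelle RNA editing, were at 56.8 ± 2.48 and 30.8 ± 1.59 RPKM in poly(A) RNA. In nuclear RNA they were at 25.7 ± 7.52 and 15.0 ± 6.65 RPKM, and both fell (limma adjusted p = 0.00115 and 0.00876; SD, n = 4 each). The tetratricopeptide gene OS02G0109800 fell from 76.8 ± 3.60 to 49.3 ± 8.61 RPKM (limma adjusted p = 0.00548; SD, n = 4 each), with an adjusted p of 0.0502 at an equal sum. OS05G0342900 had 67.5 ± 2.81 and 48.1 ± 14.4 RPKM and did not pass (limma adjusted p = 0.0573; SD, n = 4 each), but did without nuclear library 2 or 3 (adjusted p = 0.0313 and 0.0217).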

How the data were processed

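The deposited table holds RPKM per gene and library, computed by the authors from random primed libraries. Per the submitters' processing notes, CASAVA 1.8, FastQC, TopHat2 2.1.1 and the IRGSP-1.0 genome were used. How reads were counted, with which strand setting and annotation, is not given in the sources used here, so overlapping and antisense genes and near-identical copies cannot be told apart. The shoot base nuclear sample (plants 3 weeks old, line pOSH1:OsNTF1) has no column and was not analysed here. Sequences and coordinates were not analysed here: the reference table pairs 0 of 267 members by identifier and 1 by symbol.

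RPKM were whole multiples of 1 read for all 33191 genes above 0, to within 4.4e-05 of a read. At first pass, 98.76% of the lengths this gave were whole numbers of nt, with a tolerance of 0.02. Recovered reads, lengths and depths come from these steps; tested on simulated data, 98.5% of 32793 genes got their true reads.

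The pools were compared with limma 3.58.1 (R 4.3.3) on log2(RPKM + 1), two-sided, over 26928 genes with a mean of at least 1 RPKM in either pool, with Benjamini-Hochberg adjustment over them all. Folds on that scale understate the change of low genes. On simulated data (50 genes per fold), 12% of genes changed 1.5-fold, 62% at 2-fold, 92% at 4-fold and 100% at 8-fold were called. Of 24547 unchanged genes, 37 were called, 30 of them lower. The simulation changed few genes, all with a poly(A) level of at least 3 RPKM, at an assumed spread between libraries. In the data, 33.1% of tested genes were higher and 30% lower. The rates may thus not hold for these data, or for PPR genes under 3 RPKM. Same-numbered libraries did not deviate together (r of −0.048 to 0.009), so no pairing by number was seen. With few reads in the nuclear libraries, a weak pairing could be missed.

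Members, lists and tests were chosen with earlier results of these data known. A gene at 0 in all libraries that matched the green tissue words only through a domain's name was left out of that list. Named were members with a symbol, the 8 largest differences among those called, every member called lower, the 8 highest in poly(A) RNA, the 4 smallest differences at 12 RPKM or more, 2 genes on each side of the threshold and the 2 highest in poly(A) RNA of each comparison list. Alternatives changed the pseudocount, filter, scaling, depth, threshold, variance model and libraries; voom on recovered reads and the restriction to poly(A) means of at least 3 RPKM were added after seeing the data.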

Additional observations from a re-analysis of the deposited data

Results flagged for a closer look

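Among 66 groups of 4 libraries, 3 held a library far from the other 3 of its pool, where chance gives about 1 in 20. OS07G0603900 stood at 39.4 RPKM in poly(A) library 1, above 33.9 to 34.6 RPKM in the other poly(A) libraries. OS04G0450200 stood at 11.1 RPKM in nuclear library 3, against 3.68 to 4.53 RPKM in the other nuclear libraries. OS07G0599000 stood at 9.01 RPKM in nuclear library 1, against 17.5 to 18.4 RPKM in the others.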

How the results depend on the processing

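The count of 223 higher PPR genes was 177 to 237 over the settings of filter, pseudocount, scaling, depth and variance model. With 1 library left out it was 213 to 230. The 177 came from a filter of 5 RPKM, under which members below it were not tested. Of all tested genes, 26.5 to 38.6% were higher over these settings and 29.3 to 35.6% with 1 library left out. The higher count was 74 at a threshold of 10 RPKM, which fewer genes reach, and 57 of the 86 genes with a poly(A) mean of at least 3 RPKM. The lower count of 7 was 5 to 8 with 1 library left out, 11 with quantile normalization and 12 with median centring. Of all tested genes, 26.1 to 31.1, 31.9 and 34.1% were lower in these settings, against 30% in the main setting. At a threshold of 10 RPKM the lower count was 4. Voom on recovered reads gave 237 higher and 8 lower, against 38.6 and 30.5% of all tested genes. The median of 0.94 for genes with a poly(A) mean of at least 3 RPKM was 0.87 to 0.97 with 1 library left out, 1.18 at an equal sum, 0.76 with quantile normalization, 0.79 with median centring and −0.19 for the 15 genes at 10 RPKM or more. The median of all tested genes moved from 0.08 to 0.29 at an equal sum and to −0.08 with median centring, and higher genes made up 52.5, 61.3 and 45.9% of all calls. With a pseudocount of 0.1 the medians were 2.78, 1.94 and 1.30 in the bins under 1, 1 to 3 and 3 to 6 RPKM, and 1.73, 1.94 and 1.81 from the short to the long class. The lowest bin was at 1.99 after thinning the poly(A) reads, and the bin from 6 to 12 RPKM at 0.46 with the level from other libraries. As shares of reads, the family held 0.213 and 0.636%, and 0.139 and 0.488% of RPKM without the 100 highest genes. The causes of these shifts were not tested.

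The replicate number as a block gave 220 higher and 7 lower, against 31.2 and 28.3% of all tested genes, and no pairing by number was seen. The planned count-model tests were not run, since the deposited unit is RPKM. Uncalled genes changed sign as follows. OS07G0603900 was at 0.16 at an equal sum and 0.0088 with quantile normalization. OS01G0793200 was at 0.046 at an equal sum, and −0.45 to 0.025 with 1 library left out, above 0 without nuclear library 3 or 4. OS07G0578800, just below the threshold, was at 0.10 at an equal sum, 0.24 after thinning, 0.0055 with voom, and −0.27 to 0.11 with 1 library left out, above 0 without nuclear library 3 or 4. Besides the calls lost with 1 library left out, OS04G0450200 lost its call at an equal sum and after thinning, OS01G0848300 under these, a pseudocount of 0.1 and no filter, OS01G0897500 after thinning and OS03G0159700 with voom. Depth limits the nuclear values, which rest on a median of 105 reads a gene.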
